A study of Mus musculus with 2116 samples.

Results

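Ly6C-expressing conventional CD4 T cells were taken as the cells of the spleen Tconv library with at least 500 unique molecular identifiers (UMIs, each standing for 1 captured RNA molecule), with 0 UMIs of Cd79a, Lyz1 and C1qa, and with at least 1 UMI of Ly6c1 or Ly6c2. Of the 1280 eligible cells the rule found 11.3%, made up of 51 cells with 1 UMI of the 2 genes together, 56 with 2 and 38 with at least 3, and they are called Ly6C cells here. That library holds 1300 cells and the whole series 2116. All other eligible cells had 0 UMIs of both genes and form the comparison. The members were chosen by their Ly6c1 and Ly6c2 counts, so these counts are given as a description only.

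Both libraries of the series came from spleens of male mice of the strain B6 Foxp3-Ires-Gfp aged 8 months, in which green fluorescent protein marks cells that express Foxp3, the transcription factor of regulatory T cells. Single cells were encapsulated by inDrops, a droplet method that primes on poly(A) and counts UMIs. By title, the Tconv library is the Foxp3-negative population and the Treg library the Foxp3-positive one, although the sorting protocol gives GFP-positive cells for both. A Foxp3 UMI was found in 0.529% of the Tconv cells without Ly6C and in 37.1% of such Treg cells. No treatment separates them and both carry the reporter allele. Each population is 1 library with no animals named, so no test across animals was possible, cells were not treated as replicates, and the Treg library served as a separate place to apply the same rule.

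Ly6C is a small glycoprotein of the Ly6 family, held in the outer membrane by a glycosylphosphatidylinositol (GPI) anchor and encoded in the mouse by the near-identical genes Ly6c1 and Ly6c2. In CD4 T cells it is known as a surface protein that varies among naive cells and is also carried by some effector and memory cells. Among naive CD4 T cells its surface level is known to run opposite to that of Cd5, a receptor whose level is set by the strength of T cell receptor (TCR) signalling on self ligands. Ly6 genes, Ly6a and Ly6e among them, are known as interferon-responsive genes.

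The coding sequences of the Ly6C genes are shown because they bear on how far the 2 genes can be told apart in these counts. The method primes on poly(A), at the far end of the transcript, so the printed bases alone do not decide it. The first 300 bases from the start codon are printed as annotated in GENCODE vM21, and capitals mark the bases that differ, 7 here and 9 over the whole coding sequence.
Ly6c1: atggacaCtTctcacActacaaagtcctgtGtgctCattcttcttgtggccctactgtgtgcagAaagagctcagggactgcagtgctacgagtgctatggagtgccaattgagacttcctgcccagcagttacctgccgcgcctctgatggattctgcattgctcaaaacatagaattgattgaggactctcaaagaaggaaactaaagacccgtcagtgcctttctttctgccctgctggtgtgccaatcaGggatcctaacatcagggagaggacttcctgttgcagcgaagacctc
Ly6c2: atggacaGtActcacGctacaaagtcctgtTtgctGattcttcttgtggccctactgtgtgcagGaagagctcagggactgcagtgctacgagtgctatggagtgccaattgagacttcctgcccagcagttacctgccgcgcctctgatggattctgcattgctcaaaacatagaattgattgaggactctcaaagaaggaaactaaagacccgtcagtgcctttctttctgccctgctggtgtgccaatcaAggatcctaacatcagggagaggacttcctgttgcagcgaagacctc
The whole coding sequences were 97.7% identical. Over the longest coding transcripts, 44.2% of the 35-base words of Ly6c1 also occurred in Ly6c2, so a read from such a stretch fits both genes. Within the last 300 bases of each transcript, nearest the poly(A) end, 40.2% of the words were shared. Both lie on the minus strand of chromosome 15 (GRCm38, which is mm10), Ly6c1 at chr15:75044018-75048830 and Ly6c2 at chr15:75108158-75111970. The Ly6a gene, at chr15:74994877-74998031, shared 8.90% of its words with Ly6c1, and Ly6i, at chr15:74979534-74983430, shared 4.37%. No 35-base word of Ly6e or Ly6f occurred in Ly6c1. Words that these relatives share with Ly6c2 were not counted.

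Ly6C cells made up 11.3% of the eligible Tconv cells, with an exact Clopper-Pearson 95% interval of 9.64% to 13.2%. With every cell thinned to 1000 UMIs the share was 9.22% of 1096 cells (7.57% to 11.1%), shallower cells being left out, 16 of them Ly6C cells. In 3 equal bins from the shallowest to the deepest cells it was 11%, 10.6% and 12.4%, at medians of 1037, 1514 and 1973 UMIs. The Ly6C cells had a median of 1550 UMIs, against 1507 UMIs in the other cells. In the Treg library 14.5% of the eligible cells met the rule, at a median of 1759.5 UMIs. A level for free RNA could not be set from cells of another type. Of 12 cells in the Tconv library with at least 3 UMIs of B cell genes, at a median of 1752 UMIs, 3 had a Ly6C UMI, a share of 25% with an interval of 5.49% to 57.2%.

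Most Ly6C cells stood close to the detection limit. Just inside the rule lay the 51 cells with 1 UMI of the 2 genes together, just outside it the cells with 0, and the highest cell held 12. Both genes were found in 91 cells, only Ly6c1 in 43 and only Ly6c2 in 11. Ly6c1 was present in 89.2% of the cells with Ly6c2 and in 3.65% of the cells without it. The most frequent pair was 1 UMI of each, in 53 cells, and how often 1 molecule was entered under both genes was not tested. For that reason the level of Ly6C was graded by the larger of the 2 counts, a grading chosen after the data were seen: 41 cells stood at 2 or more and all others at 1.

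**Figure D1:**
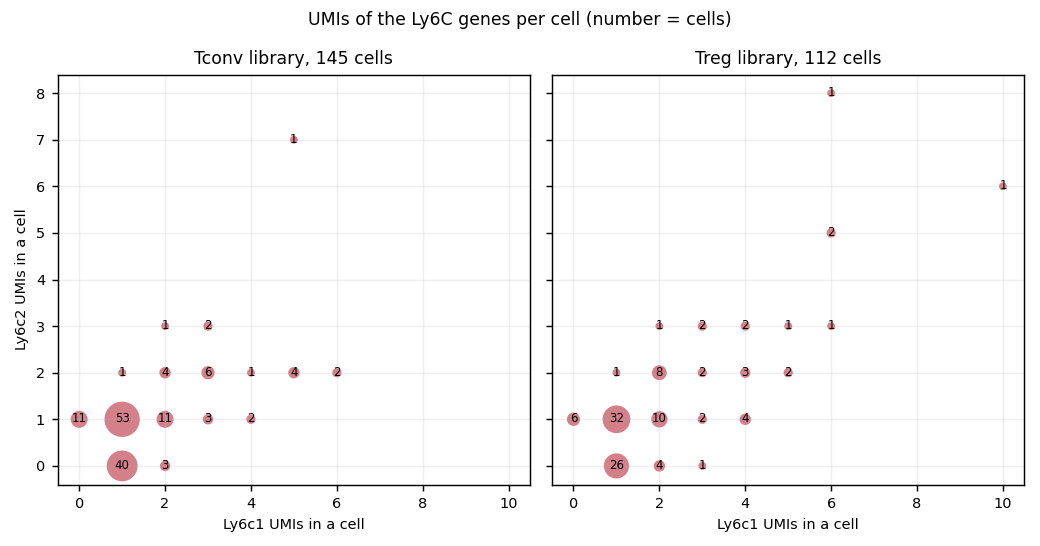
UMIs of Ly6c1 (horizontal axis) and of Ly6c2 (vertical axis) in each cell that met the rule, in the Tconv library (left) and the Treg library (right); each circle is a combination of counts, its area grows with the number of cells and the number is printed on it. In the Tconv library 53 cells sit at 1 UMI of each gene, and 1 cell has 5 of Ly6c1 and 7 of Ly6c2.

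T lineage genes did not differ between the Ly6C cells and the other cells beyond counting error. Cd4 stood at 708.2 counts per 1000000 UMIs (CPM, with Ly6c1 and Ly6c2 left out of the total) in the Ly6C cells and 707.2 CPM in the others. The 7 T lineage genes in the table together gave a log2 ratio of -0.09, with an interval of -0.19 to 0.02. All intervals of ratios are exact conditional 95% intervals for counting error only. They treat UMIs as independent, and are too narrow: among genes with few UMIs, 13.4% of the cells in which a gene was found held 2 or more of its UMIs, where independent counts give 1.40%. No Foxp3 UMI was found in the Ly6C cells, which allows up to 12.7 CPM, and 6 were found in the other cells. Of the CD8 genes, Cd8a had 0 and 1 UMIs, and Cd8b1 was found in 12 Ly6C cells (8.28%) and in 6.08% of the others, a log2 ratio of 0.28 (-0.69 to 1.13).

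RNA of other cell types was scarce in both classes. At least 3 UMIs of any such marker list were found in 4 Ly6C cells (2.76%) and in 21 other cells (1.85%). By UMIs 4 marker lists stood higher in the Ly6C cells, each with a large part in 1 cell. In the plasma cell list all but 10 of its UMIs in the Ly6C cells came from 1 cell with 1 UMI of Ly6C. Jchain, the joining chain of secreted antibodies, led in that cell. Outside that cell Jchain had 0 UMIs in the Ly6C cells and 4 in the others. The NK or NKT list had 14 UMIs in the Ly6C cells, 7 of them in 1 cell, and 22 in the others, a log2 ratio of 2.23 (1.15 to 3.26). The B cell list had 22, of which 17 lay in 1 cell, a log2 ratio of 1.23 (0.47 to 1.94). The plasmacytoid dendritic cell list had 47, of which 16 lay in 1 cell, and gave 0.62 (0.13 to 1.07). The myeloid list gave -0.02 (-0.73 to 0.63). With all cells at or above 3 UMIs of any such list left out, the interferon list described below gave a log2 ratio of 0.37, against 0.35 with them. The 5 erythroid and the 5 platelet genes were at 0 in the Ly6C cells, where 14 of 16 myeloid genes were at 0 too.

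Across all genes, 4962 genes had at least 50 UMIs in both classes together and are called measured. Of these, 10.1% were at least 1.5-fold higher in the Ly6C cells and 16.4% at least 1.5-fold lower, with a median log2 ratio of -0.03. These shares count noise as well as differences, since the Ly6C cells hold 235818 UMIs and the other cells 1737747. They are the background for the gene groups below. The minimum counts both classes together, so a rare gene can reach it through the class in which it is higher. At a minimum of 200 UMIs per gene 44 and 74 genes were past that fold.

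Interferon-responsive genes stood higher in the Ly6C cells as a group. Of 44 measured members of the list, 19 were at least 1.5-fold higher and 0 at least 1.5-fold lower, against the background of 10.1% and 16.4%. Their median log2 ratio was 0.44, against -0.03 over all measured genes, and 36 of 44 lay above 0. The summed level of the list was 11089 CPM in the Ly6C cells and 8689 CPM in the others, a log2 ratio of 0.35 (0.29 to 0.41). Leaving out Shisa5, the most abundant member with a log2 ratio of -0.07, gave 0.49, and leaving out Ly6a and Ly6e gave 0.27.

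Per cell the difference was a shift of 1 UMI in the median with a tail. In cells thinned to 1000 UMIs, the list without Ly6a, Ly6e and Shisa5 gave a median of 5 UMIs in the Ly6C cells and 4 in the other cells. At least 10 such UMIs were found in 20.9% of the Ly6C cells (14.3% to 29%) and in 11.2% of the others (9.25% to 13.3%). The highest cell held 52 of these UMIs in the first class and 50 in the second, so the ranges overlapped. The 5 highest Ly6C cells carried 18.1% of the list's UMIs in their class.

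Among the Ly6 relatives on the list, Ly6a, which encodes the GPI-anchored Sca-1, stood at 992 CPM in the Ly6C cells and 467.3 CPM in the others, found in 69 cells of the first class, a log2 ratio of 1.09 (0.87 to 1.30). After thinning, 39.5% of the Ly6C cells had a Ly6a UMI (31% to 48.5%), against 24.8% of the others (22.1% to 27.7%). With at most 1 UMI counted per gene and cell the ratio was 0.45, and over cells with a Ly6c2 UMI it was 0.50, so the size of the Ly6a difference rests on cells with many Ly6a UMIs, up to 16, and on the choice of the Ly6C gene. Ly6a shares words with Ly6c1, and the part of shared reads in its ratio was not tested.

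Ly6e, a GPI-anchored relative known for restricting viruses, shares no such word with Ly6c1. It stood at 801 CPM in the Ly6C cells and 533 CPM in the others, a log2 ratio of 0.59 (0.35 to 0.81), and 51.2% against 32% of the thinned cells had a UMI. The intervals of those shares, 42.2% to 60.1% and 29% to 35%, do not overlap. Intervals of shares cover only the draw of cells within 1 library, in which cells are not replicates. Counting at most 1 UMI per cell left the ratio at 0.58. Ly6i gave 16 UMIs in 16 Ly6C cells and 10 UMIs in the other cells, a log2 ratio of 3.56 (2.33 to 4.86) in a gene that again shares words with Ly6c1. Ly6f had 7 UMIs against 22.

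Larger ratios from fewer molecules were found for single antiviral genes. Ifit1, which binds foreign RNA, had 22 UMIs in the Ly6C cells and 50 in the others, or 93.3 CPM against 28.8 CPM, a log2 ratio of 1.70 (0.90 to 2.45). Rtp4, an interferon-induced chaperone, stood at 140 CPM against 48.3 CPM, with a log2 ratio of 1.53 (0.91 to 2.13). Irf7, the transcription factor that amplifies type I interferon, was found in 13 Ly6C cells (8.97%) with 1 UMI in each and in 33 other cells (2.91%), a log2 ratio of 1.37 (0.34 to 2.32). These 3 transcripts were rare, in 11, 18 and 13 Ly6C cells. Irf7, with 37 UMIs in the other cells, reached the minimum of 50 UMIs only with its UMIs in the Ly6C cells. It is among the 19 genes counted as higher above. Of the 11 Ifit, Oas and RNA helicase genes of the list, which sense or bind foreign RNA, 3 were measured and only Ifit1 was at least 1.5-fold higher. The others were Ifit2 at -0.25 (-1.51 to 0.81) and Ddx58, the sensor RIG-I, at 0.34 (-0.22 to 0.85). All 11 together, the unmeasured ones included, gave a summed log2 ratio of 0.71 (0.39 to 1.02). The grouping of these 11 genes was chosen after the values were seen.

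Of the 9 measured interferon-inducible GTPase genes of the list, which act on membranes around pathogens, 7 were at least 1.5-fold higher and 0 at least 1.5-fold lower. This subgroup too was formed after the values were seen, and the background over all genes was 10.1% and 16.4%. Igtp, with 65 UMIs in the Ly6C cells, stood at 275.6 CPM against 170.9 CPM, a log2 ratio of 0.69 (0.28 to 1.08), and a UMI in 22.5% against 12.8% of the thinned cells. Iigp1 gave 1.18 (0.43 to 1.87), Irgm2 0.79 (0.13 to 1.41), Gbp6 0.84 (0.19 to 1.45), Gbp7 0.72 (0.22 to 1.19) and Irgm1 0.59 (0.09 to 1.05). The intervals of Gbp4 at 0.64, Gbp2 at 0.12 (-0.51 to 0.70) and Gbp9 at -0.15 include 0. Trim30a, a regulator of inflammatory signalling, gave 0.80 (0.27 to 1.31). Members with intervals that include 0 were the signal transducers Irf9 at -0.09 and Stat2 at 0.10, the feedback inhibitor Socs1 at -0.39, and the immunoproteasome subunits Psmb8 at 0.19 and Psmb9 at 0.15. Tap1, the peptide transporter beside them in antigen processing, gave 0.61 (0.21 to 0.98).

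Promoters of 2 of these genes are printed because they show the sequence by which the interferon group is known. The window is the 250 bases before the RefSeq start site (GRCm38.p6), and capitals mark matches on either strand to the core of the interferon-stimulated response element, which is TTTC, any 2 bases and TTTC, and to the gamma-activated site, which is TTC, any 3 bases and GAA. The motifs overlap nowhere in these windows.
Ifit1, chr19:34640639-34640888, plus strand: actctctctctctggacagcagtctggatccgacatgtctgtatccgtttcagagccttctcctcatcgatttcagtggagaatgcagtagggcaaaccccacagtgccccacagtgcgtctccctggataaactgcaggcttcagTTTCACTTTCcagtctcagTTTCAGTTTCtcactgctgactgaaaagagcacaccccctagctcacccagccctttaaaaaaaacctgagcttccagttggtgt
Igtp, chr11:58199306-58199555, plus strand: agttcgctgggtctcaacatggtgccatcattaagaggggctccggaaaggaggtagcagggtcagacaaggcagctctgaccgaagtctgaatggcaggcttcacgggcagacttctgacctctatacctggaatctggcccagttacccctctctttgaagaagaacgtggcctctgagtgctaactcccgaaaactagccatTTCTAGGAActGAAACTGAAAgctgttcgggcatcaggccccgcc
The Ifit1 window held 2 matches to the first motif, the nearer one beginning 85 bases before the start site. The Igtp window held 1 match to each, the second motif beginning 45 bases and the first 34 bases before the start site. The first motif was present in 2.98% of 32851 promoter windows of this length. Counted by gene, it was present for 3.46% of 27025 genes and for 21 of the 46 list genes with a window (45.7%). The second was present in 7.02% of all windows, for 8.13% of genes and for 10 of the 46 list genes (21.7%). Neither motif matched in the windows of Ly6c1, Ly6c2 or Trim34a, a gene described below. No window was available for Ly6a, Ly6e or Rtp4.

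Cd5 had nearly equal RNA levels in both classes. It had 33 UMIs in the Ly6C cells and stood at 139.9 CPM against 139.8 CPM, a log2 ratio of 0.00 with an interval of -0.57 to 0.53. A Cd5 UMI was present in 17.2% of the Ly6C cells and 16.9% of the others, and after thinning in 11.6% (6.66% to 18.5%) and 13% (11% to 15.3%). By Ly6C class the level was 139.8 CPM at 0 UMIs, 123.2 CPM at 1 and 177.02 CPM at 2 or more, with intervals that all overlap. A difference in Cd5 RNA was thus not detectable at this depth, and the counting interval leaves room for up to 1.44-fold more or a ratio as low as 0.67. That interval is too narrow and does not bound a difference. Cells with 0 Ly6C UMIs may hold Ly6C RNA that was not captured, and how many do was not tested. Protein on the surface was not measured.

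Other genes that respond to TCR signals went in both directions. Of 19 measured members of that list, Cd5 included, 3 were at least 1.5-fold higher and 5 at least 1.5-fold lower, against the background of 10.1% and 16.4%. The 5 were Izumo1r, Ikzf2, Tnfrsf18, Icos and Dusp2. Of these the first 3 are also on the regulatory T cell list below, and Icos is on the Tfh list. Over the 19 members the median log2 ratio was 0.00, and the summed level of the list gave -0.12 (-0.26 to 0.01). Izumo1r, the folate receptor family member FR4 of regulatory and anergic T cells, had 14 UMIs in 7 Ly6C cells (4.83%) and was found in 11.6% of the other cells. The levels were 59.4 CPM against 176.1 CPM, a log2 ratio of -1.57 (-2.46 to -0.80), and -1.32 with at most 1 UMI per cell. Its thinned shares, 5.43% (2.21% to 10.9%) and 8.58% (6.89% to 10.5%), overlapped. Across the Ly6C classes Izumo1r stood at 176.1, 80.1 and 13.6 CPM, the last from 1 UMI.

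The immediate early genes had few cells behind them. Egr1 had 22 UMIs in the Ly6C cells, 11 of them in 1 of the 8 cells with the gene, against 53 UMIs in the others, a log2 ratio of 1.61 (0.82 to 2.36). Cd69, an early activation marker that keeps T cells in tissue, gave 0.90 (0.13 to 1.60) from 10 cells, all at 1 UMI of the larger Ly6C gene, while the 41 cells at 2 or more had 0 Cd69 UMIs. Nr4a1, a reporter gene of TCR signalling, was found in 4 Ly6C cells and 14 others, and its interval ran from -0.88 to 1.52. Dusp2, a phosphatase that ends MAP kinase signals, stood lower at 148.4 CPM against 252.1 CPM, with -0.76 (-1.30 to -0.27). Its value with at most 1 UMI per cell was -0.40. Nfkbia at 0.14, Nfkb1 at 0.00 and Myc at -0.15 had intervals that include 0.

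The 25 measured genes of proximal TCR signalling, a separate list, were level in sum, at a log2 ratio of 0.02 (-0.06 to 0.09). None of them reached 1.5-fold on the higher side and 1 did on the lower side, against the background of 10.1% and 16.4%. Lat, the adaptor that assembles the signalling complex, stood at 725 CPM against 590 CPM, a log2 ratio of 0.30 (0.06 to 0.53). Prkcq, the kinase that links the receptor to NF-kappaB, gave 0.51 (0.02 to 0.97), with a UMI in 21.7% against 12.7% of the thinned cells. Cd247, the CD3 zeta chain, gave -0.37 (-0.74 to -0.02). The kinase Lck was at -0.06 (-0.24 to 0.12).

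Naive T cell genes were close to level between the classes. Of 28 measured members 3 were at least 1.5-fold higher and 3 at least 1.5-fold lower, shares near the background of 10.1% and below that of 16.4%. The summed level was 7349 CPM against 7797 CPM, a log2 ratio of -0.09 (-0.16 to -0.01), and 21 of 28 members lay below 0. The median over all measured genes was itself below 0, at -0.03. The chemokine receptor Ccr7, which guides T cells into lymphoid tissue, did not differ beyond counting error, at -0.08 (-0.38 to 0.20). The same was true of the naive transcription factors Tcf7 at -0.11 and Lef1 at -0.11, and of Satb1 at -0.18 (-0.41 to 0.05).

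Within the naive list 3 genes stood higher. Pdlim4, an adaptor with PDZ and LIM domains, had 43 UMIs in 30 Ly6C cells and was found in 96 other cells, at 182.3 CPM against 70.8 CPM and a log2 ratio of 1.37 (0.83 to 1.88). Its share of thinned cells was 14.7% (9.11% to 22%) against 5.69% (4.31% to 7.34%). These intervals do not overlap, but they cover only the draw of cells within 1 library. Across the Ly6C classes it stood at 70.8, 215.5 and 108.9 CPM, so the last class was below the second. Pde3b, a phosphodiesterase of cyclic nucleotides, gave 0.93 (0.33 to 1.49), and 0.58 with at most 1 UMI per cell. Dapl1, a relative of a death-associated protein, stood at 322.3 CPM against 214.6 CPM, with 0.59 (0.21 to 0.95), and across the Ly6C classes at 214.6, 270.97 and 435.7 CPM.

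Other naive genes stood lower. Igfbp4, a secreted binding protein of naive CD4 T cells and recent thymic emigrants, was at 602.2 CPM against 783.8 CPM, with a log2 ratio of -0.38 (-0.64 to -0.13), and at 783.8, 640.5 and 517.4 CPM across the Ly6C classes. Bach2, a repressor that holds cells out of effector fate, gave -0.73 (-1.49 to -0.06), with 3.88% against 11% of the thinned cells, but its levels across the Ly6C classes were 134.1, 61.6 and 122.5 CPM. The kinase gene Sgk1 gave -0.77 (-1.58 to -0.06), but a UMI was present in 10.3% of the Ly6C cells and 10% of the others. After thinning the shares were 4.65% and 8.48%. With at most 1 UMI per cell the Sgk1 ratio was -0.01.

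**Figure D2:**
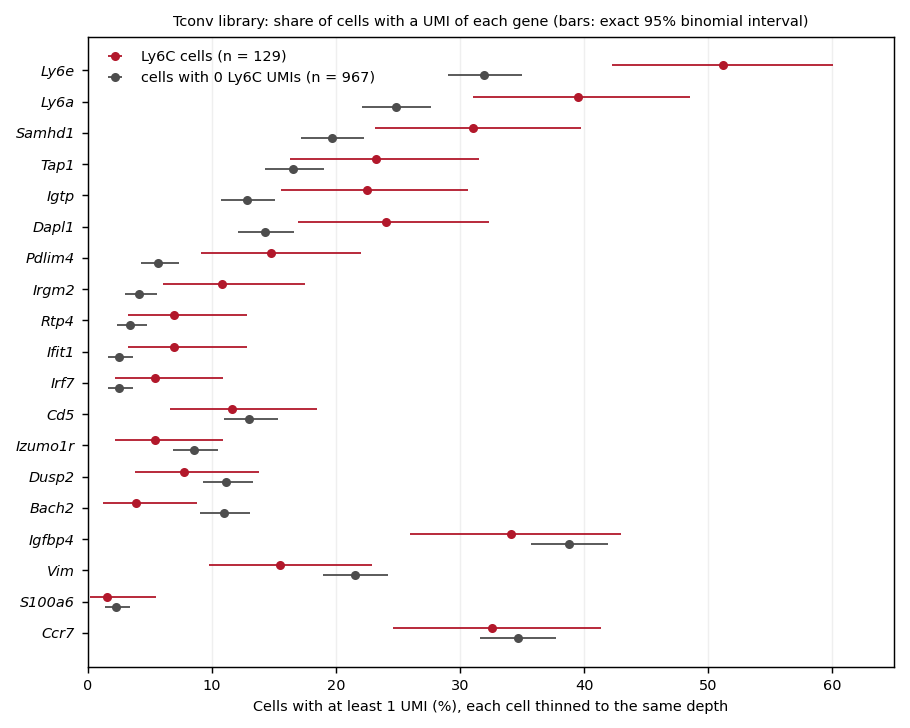
Share of cells with at least 1 UMI (horizontal axis, percent) of 19 genes in the Tconv library after each cell was thinned to 1000 UMIs, for Ly6C cells (red) and other cells (grey); bars are exact 95% binomial intervals. Intervals do not overlap between the classes for Ly6e, Ly6a, Samhd1, Igtp, Dapl1, Pdlim4 and Irgm2, higher in the Ly6C cells, and for Bach2, lower there. All other genes shown overlap, Cd5, Izumo1r and Ccr7 among them. The intervals cover only the draw of cells within 1 library.

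Effector and memory genes were near level as a group. Of 22 measured members 2 were at least 1.5-fold higher and 4 at least 1.5-fold lower, near the background of 10.1% and 16.4%. Their median log2 ratio was -0.21, and the summed ratio of the list was -0.05 (-0.11 to 0.02). Without Tmsb10, which gives most of the UMIs of the list and stood at 0.03, the sum gave -0.15. A UMI of S100a4, S100a6, Itgb1, Ccl5, Nkg7 or Cxcr6 was present in 16 Ly6C cells (11%, interval 6.44% to 17.3%) and in 9.78% of the others (8.11% to 11.7%). Over cells with none of these 6 genes the Ly6a ratio was 1.01 and the Ly6e ratio 0.55.

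The effector genes S100a6 and Vim differed mainly in UMIs per cell. S100a6, a calcium-binding protein of memory cells, had 4 UMIs in 3 Ly6C cells and 120 UMIs in 31 others, a log2 ratio of -2.03 (-3.92 to -0.63), yet 2.07% and 2.73% of the cells carried it. With at most 1 UMI per cell its ratio was -0.45. Vim, the intermediate filament vimentin, stood at 203.5 CPM against 313.6 CPM, with -0.62 (-1.08 to -0.20), and at -0.24 in that count. The integrin chain Itgb2 gave -0.39 (-0.72 to -0.08), and the chemokine receptor Cxcr6 1.17 (0.19 to 2.05) from 5 Ly6C cells (3.45%, against 1.67% of the others). Cd44, the other measured member at least 1.5-fold higher, gave 0.72 with an interval that includes 0 (-0.19 to 1.55). It was found in 7.59% of the Ly6C cells and 4.05% of the others. Crip1 at 0.01 and Emp3 at -0.04 were level.

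Genes of specialised helper fates were sparse. The Tfh list, the genes of B cell helpers in follicles, gave a summed log2 ratio of -0.48 (-0.89 to -0.09), with 6 of 6 measured members below 0. The single intervals of all 6 include 0, and the median over all measured genes was itself below 0, at -0.03. Against the background of 16.4%, 2 of the 6 members were at least 1.5-fold lower, Icos at -0.90 and Tox at -0.81. Regulatory T cell genes gave 42 UMIs in the Ly6C cells and 660 in the others, -1.09 (-1.58 to -0.64). All 3 measured members of this list were at least 1.5-fold lower, against the same background. The same 3 genes are on the TCR-response list and among its 5 lower members, so the 2 counts are not separate results. Izumo1r was the most abundant, and Ikzf2, at 2 against 49 UMIs, and Tnfrsf18, at -0.59, had intervals that include 0. The Th1 list gave 0.08 (-0.31 to 0.46), with Stat4 at 0.18 and Runx3 at -0.29, the Th2 list -0.24 (-0.68 to 0.18), with its transcription factor Gata3 at -0.39, and the Th17 list had 2 and 30 UMIs. The list of GPI-anchored and raft proteins gave 0.22 (0.13 to 0.31), and it holds Ly6a and Ly6e. Without them, a split made after the values were seen, it gave -0.05 (-0.16 to 0.06), with Thy1 at 0.07, Cd52 at 0.01 and Izumo1r at -1.57.

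Beyond the lists, the genes whose intervals lay farthest from 0 were mostly rare transcripts. On the higher side Trim34a, of an interferon-inducible family, came first with 25 UMIs in 11 Ly6C cells and 50 in the others, a log2 ratio of 1.88 (1.13 to 2.60). Among the 15 highest, Gid8, a subunit of a ubiquitin ligase, gave 1.70 (0.90 to 2.45) from 14 cells, Poc1b 1.64 from 8 cells and Ncstn, a subunit of gamma-secretase, 1.66 from 12 cells. Ncstn had 35 UMIs in the other cells and reached the minimum of 50 UMIs only with its 15 in the Ly6C cells. Txndc5 gave 1.66, but 18 of its 21 UMIs lay in 1 cell. On the lower side Papss1, Aim1 and Qsox1 had 1 UMI each in the Ly6C cells, with log2 ratios of -3.54, -3.48 and -3.33, and Strn4 gave -2.20 from 3 cells. Wbp4, a splicing factor, had 4 UMIs and stood at 17 CPM against 81.7 CPM, a log2 ratio of -2.27 (-4.16 to -0.88), and 0.775% against 7.03% of the thinned cells. Wrnip1 gave -1.75 (-2.98 to -0.74). Atrn and Timm10 had 0 UMIs in the Ly6C cells, at least 3.39-fold and at least 2.67-fold lower against a floor of 3 counts over the class. Their exact intervals end at log2 ratios of -1.43 and -1.07, which are smaller differences than these floors give.

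Whether interferon genes followed the level of Ly6C depended on how the level was graded. By the larger gene, without Ly6a, Ly6e and Shisa5 their summed level was 5200 CPM (5094 to 5309) at 0 UMIs, 6620 CPM (6230 to 7028) at 1 and 7598 CPM (6981 to 8255) at 2 or more of the larger gene. The intervals of the last 2 classes overlap slightly and neither overlaps that of the first. By the sum of the 2 genes there was no such order: the level was 7630 CPM (7036 to 8260) at 1 UMI, 5661 CPM (5173 to 6182) at 2 and 7717 CPM (7072 to 8404) at 3 or more. The interval at 2 overlaps that of the cells with 0. In the Treg library the levels by the larger gene were 7790, 9749 and 9505 CPM, so the last class there was not above the second. Ly6a stood at 467.3, 1010 and 953.2 CPM and Ly6e at 533.4, 806.8 and 789.8 CPM, so neither was higher in the last class than in the class with 1 UMI. Ly6i was, at 5.75, 49.3 and 108.9 CPM, though the intervals of its last 2 classes overlap. It is not on the interferon list and shares words with Ly6c1, and the part of shared reads in its levels was not tested.

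**Figure D3:**
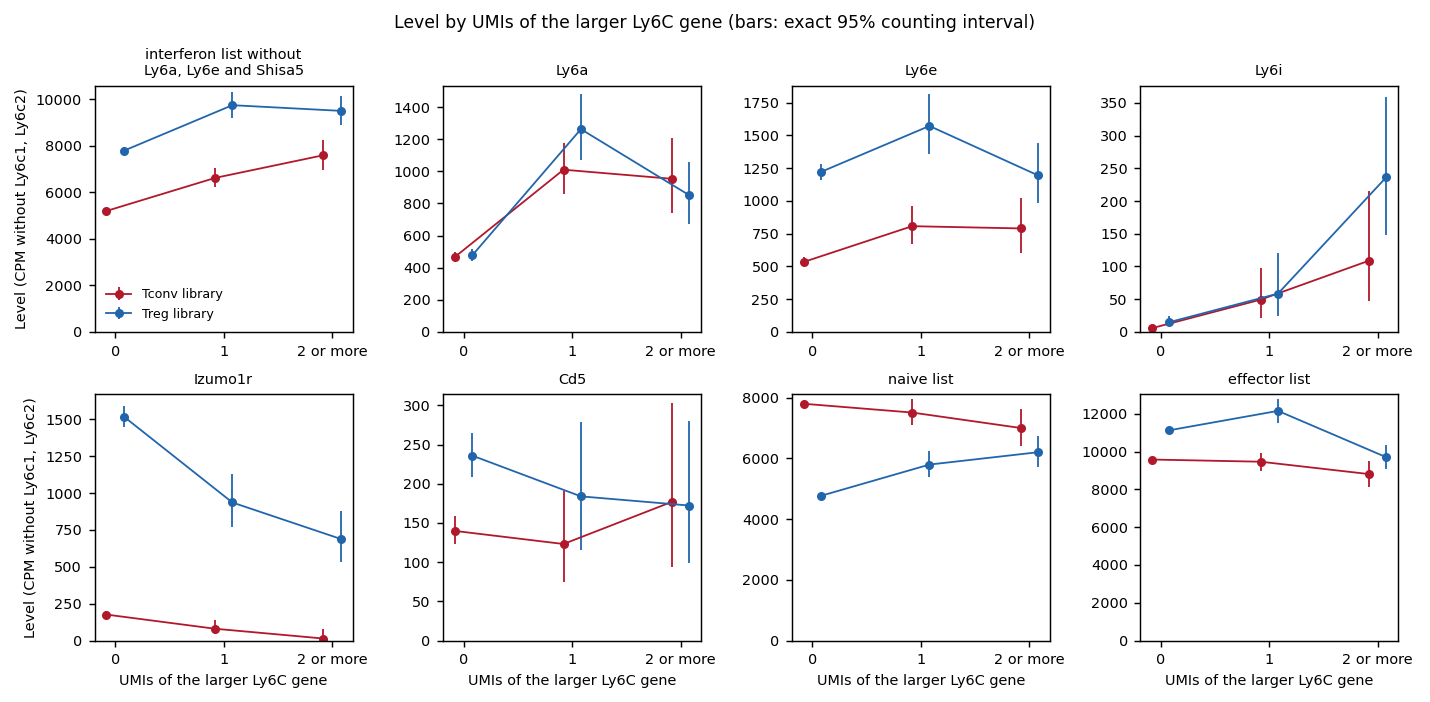
Level (CPM, vertical axis, starting at 0) of 5 genes and 3 gene lists in cells with 0, 1 or 2 and more UMIs of the larger Ly6C gene (horizontal axis), in the Tconv library (red; 41 cells in the last class) and the Treg library (blue; 64 and 48 cells in the last 2); bars are exact 95% counting intervals. The interferon list stands at 5200, 6620 and 7598 CPM in the Tconv library and at 7790, 9749 and 9505 CPM in the Treg library, Izumo1r is lower in each further class of both libraries, and the naive list is lower in the Tconv and higher in the Treg library.

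The same rule in the Treg library gave a partly different picture. There 4254 genes were measured, of which 11.2% were at least 1.5-fold higher and 20.3% at least 1.5-fold lower in the Ly6C cells. Of 44 measured interferon genes 9 were at least 1.5-fold higher and 0 lower, and the summed ratio was 0.23 (0.18 to 0.29). Of the 42 measured in both libraries 24 were above 0 in both, 2 below 0 in both and 16 on opposite sides. Over all 4025 genes measured in both, 51.7% lay on the same side of 0. Of the 10 GTPase genes measured there 2 were at least 1.5-fold higher and 0 lower, against 7 of 9 higher in the Tconv library. Their summed ratio in the Treg library was 0.30 (0.13 to 0.47). Ly6a gave 1.18 (0.95 to 1.40), close to its Tconv value, whereas Rtp4 gave 0.36 (-0.38 to 1.04) and Ifit1 0.16 (-0.82 to 1.03). Trim34a, which is not on the list, gave 1.14 (0.29 to 1.93), against 1.88 in the Tconv library. That value came from 19 UMIs in 6 Ly6C cells, and Trim34a stood at 40.7, 150.5 and 10.8 CPM across the Ly6C classes of the Treg library. Bst2 gave 2.32 there and 0.17 in the Tconv library. It is also a marker of plasmacytoid dendritic cells, of whose list's UMIs 97 lay in 1 Ly6C cell of the Treg library, and its part in that value was not tested.

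Izumo1r was lower in the Ly6C cells of both libraries, at 1519, 936.4 and 688.9 CPM across the classes of the Treg library and a ratio of -0.88 (-1.11 to -0.65) there. Cd5 gave -0.40 (-0.93 to 0.09) in the Treg library, again with an interval that includes 0. The naive list gave 0.33 (0.24 to 0.41), on the other side of 0 from the Tconv value, with Satb1 at 0.96 and Klf2 at 0.66. Whether the libraries differ could not be tested with 1 library each.

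**Figure D4:**
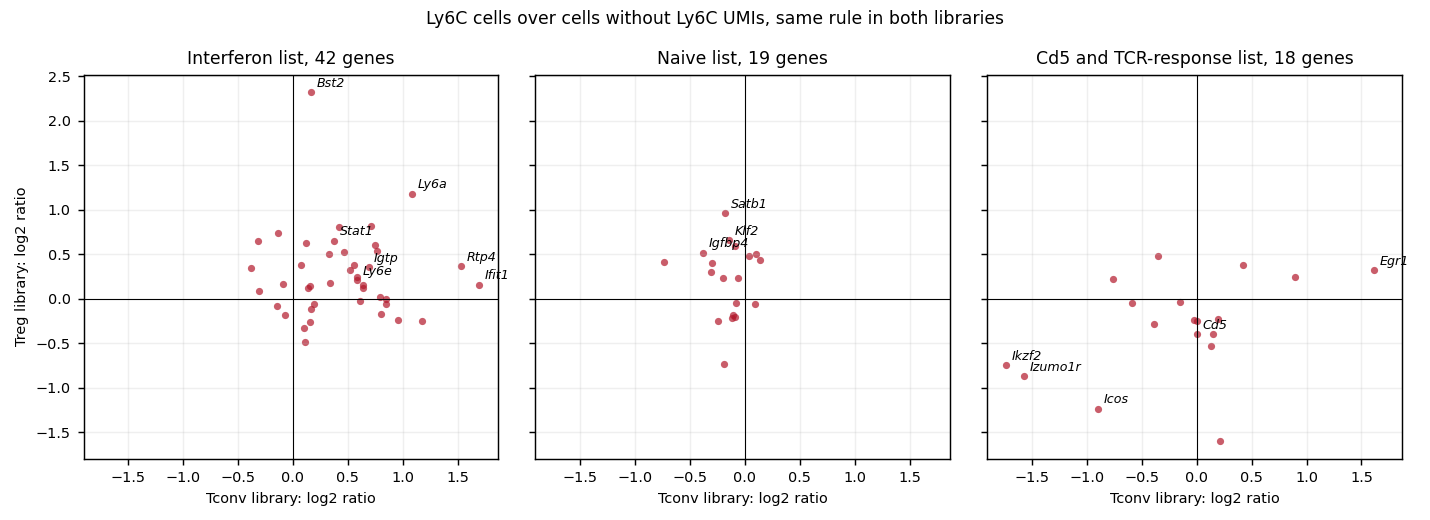
Log2 ratio of Ly6C cells over cells without Ly6C UMIs in the Tconv library (horizontal axis) and in the Treg library (vertical axis) for the genes measured in both, 1 point per gene, in the interferon (42 genes), naive (19 genes) and TCR-response (18 genes) lists. Ly6a lies high on both axes at 1.09 and 1.18, Izumo1r low on both at -1.57 and -0.88, and Satb1 is below 0 in the first library and above it in the second.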

How the data were processed

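Raw UMI counts of 23725 genes in 2116 cells, made by the authors from inDrops reads, were used as deposited, per the labels and the values. TopHat2, SAMtools and mm10 appear in the submitters' processing notes; which UMI counter and annotation were used is not given in the sources used here. Both populations are described as GFP-positive in the protocol on sorting, and cells were grouped by their titles. The Tconv library holds 2002752 UMIs in genes. The 2 libraries share 12 cell barcodes.

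Each population is 1 library with no animals named. Of 1300 Tconv cells, 6 had under 500 UMIs and 14 had a UMI of an excluded gene. UMIs were summed per class and scaled to CPM without Ly6c1 and Ly6c2, in Python 3.11.15 with scipy 1.17.1. Ratios have exact conditional and shares exact Clopper-Pearson 95% intervals, which cover counting error only. A count of 0 was set to 3 counts over the class. No doublet caller was run. Cells were thinned to 1000 UMIs for shares. With 1 library per group no p-value was computed. TMM factors from edgeR 4.0.16 on the deposited counts were an alternative. The ratio script was checked on simulated data.

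Named genes were Cd5, up to 8 members of each main list and up to 4 of every other, by the interval bound farthest from 0 and then abundance, the 15 leading genes in each direction, and Ly6 genes with at least 20 UMIs. Some genes this rule picked are not described, and 1 gene is withheld and not reported here. Other genes were named after their values were seen. The members and lists were chosen with earlier results of these data known.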

Additional observations from a re-analysis of the deposited data

Results flagged for a closer look

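Some results have intervals on opposite sides of 0 in the 2 libraries, and the difference between libraries was not tested because each is 1 sample. The naive list had a log2 ratio of -0.09 in the Tconv library and 0.33 in the Treg library, from 1733 and 1269 UMIs in the Ly6C cells. Dapl1 gave 0.59 in the Tconv library and -2.63 in the Treg library, the latter from 1 UMI against 35, and Ncstn gave 1.66 and -2.71, the latter from 1 UMI against 37. Yrdc gave -3.58 from 1 UMI against 88 in the Tconv library and 1.23 in the Treg library. Atrn, Wdyhv1 and Cnn3 had 0 UMIs in the Ly6C cells of the Tconv library, against 75, 60 and 57 in the other cells, and gave 1.44, 1.58 and 2.17 in the Treg library. Across the 4025 genes measured in both libraries, 51.7% had ratios on the same side of 0.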

How the results depend on the processing

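Depth sets the main limit: the Ly6C cells hold 235818 UMIs, a count of 0 in them allows 12.7 CPM, and UMIs of rare genes are clumped in cells. No paired analysis was possible because the numbers in the labels only name cells. Counting at most 1 UMI per gene and cell, grading by the larger Ly6C gene, classes by the sum of both genes, and the Treg library without cells of other types were chosen after seeing the data; the other alternatives were planned.

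The share of Ly6C cells was 9.22% after thinning, 7.34% with at least 2 UMIs of the 2 genes together, 7.97% by Ly6c2, 3.20% with the larger gene at 2 UMIs or more, and 14.5% in the Treg library (13.9% without cells of other types). Cd5 gave no value that moved beyond its interval. The Cd5 and TCR-response list gave 0.046 after thinning, -0.38 with the larger gene at 2 or more, and -0.38 and -0.35 in the Treg library. The naive list gave 0.33 and 0.36 there. The interferon list stayed above 0 in all settings run, with 0.26 at 2 UMIs together, 0.28 by Ly6c2, 0.43 at 2 of the larger gene, 0.23 and 0.26 in the Treg library, 0.49 without Shisa5 and 0.27 without Ly6a and Ly6e. The effector list gave -0.13 after thinning, -0.14 at 2 UMIs together, -0.12 at 2 of the larger gene and -0.15 without Tmsb10.

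Counts of genes past the fold moved by more than 1.5 times in these settings, given as percentages of the genes measured in each. The genes at least 1.5-fold higher, 10.1% here, were 18.1% with the larger gene at 2 or more, 6.66% with at most 1 UMI per cell, 14.3% at 20 UMIs per gene and 3.18% at 200, and 2.10% were 2-fold higher. The genes at least 1.5-fold lower, 16.4% here, were 10.9% with at most 1 UMI per cell, 20.3% at 20 UMIs per gene and 5.35% at 200, and 7.36% were 2-fold lower.

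Among single genes whose interval excludes 0, few values lay on the other side of 0 within the Tconv library. Txndc5 gave -0.66 by Ly6c2, -0.55 at 2 UMIs together, -0.40 with at most 1 UMI per cell, -1.47 in cells without effector UMIs, -1.05 at 2 of the larger gene, -0.98 once the deepest cells (over 2 times the median UMIs) were dropped and -1.10 without cells of other types. Nup37 gave -0.28 after thinning, and Cd69 gave -0.23 at 2 of the larger gene. In the Treg library, with and without cells of other types, the pairs were 0.22 and 0.23 for Dusp2, -2.63 and -2.52 for Dapl1, 0.52 and 0.68 for Igfbp4, 0.41 and 0.41 for Bach2, -0.25 and -0.15 for Iigp1, 0.16 and 0.21 for Cd247, -0.96 and -0.89 for Maml2, -2.71 and -2.48 for Ncstn, -0.98 and -0.83 for Ssbp1, -1.08 and -0.37 for Lman1, 1.44 and 1.35 for Atrn, 0.36 and 0.62 for Gm20324, 1.58 and 1.47 for Wdyhv1, 1.23 and 1.24 for Yrdc, 2.17 and 1.87 for Cnn3, 0.77 and 0.83 for Med20, and 0.54 and 0.72 for Wrnip1. Trim30a gave -0.18, Itgb2 0.046 and Prkcq -0.15 with all cells. Of 1288 values of the 83 named genes besides Cd5, 1121 stayed within their intervals, 46 of genes whose interval excludes 0 lay on the other side of 0, and the rest moved. Values of genes whose interval includes 0, such as Satb1 at 0.96 in the Treg library, were not counted among the 46; the causes were not tested.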
